A study of Arabidopsis thaliana with 4 samples.

Results

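Wild-type Col-0 and arf7 seedlings of Arabidopsis thaliana were compared in the absence of added auxin, using the 1 RNA-seq library of each that carried no auxin label (mock). The pair makes up 2 of the 4 libraries of the study, and 17317 of the 23695 loci with any read reached a mean of 1 CPM (unique reads per 1000000 reads of the library) over the 4 libraries and were compared. The arf7 plants carry a T-DNA insertion at ARF7, and the labels name neither the allele nor a rescue line. All seedlings were kept in darkness for 4 days on Murashige and Skoog medium, and RNA was taken from the hypocotyl, the embryonic stem that elongates in the dark. The other pair of libraries held the same genotypes grown with 500 nM naphthalene acetic acid (NAA), a synthetic auxin. The question the mock pair addresses is which transcripts differ in the mutant at the auxin level the seedling makes for itself.

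Auxin acts on transcription through a short pathway. Aux/IAA proteins hold auxin response factors (ARFs) inactive on their target promoters, and auxin promotes the destruction of Aux/IAA proteins through the TIR1 and AFB receptors. ARF7, also called NPH4, is an activating member of the ARF family and is known for its role in hypocotyl bending towards light, where it overlaps in function with its paralog ARF19. The genes that ARFs activate early include the Aux/IAA genes themselves, the GH3 genes, whose enzymes attach amino acids to auxin, and the SAUR genes, whose products promote cell expansion.

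The libraries held 7.41 M unique reads for Col-0 mock, 7.0 M for arf7 mock, 7.17 M for Col-0 NAA and 7.20 M for arf7 NAA (M, 1000000 reads). With 1 library per group no difference has a replicate check, and the labels give neither the number of plants pooled nor the hour of collection. A locus is called higher or lower here when its share of the library differed by at least 2-fold and the 95% exact conditional counting interval of the ratio excluded 1. Such intervals cover counting error only, and not variation between plants. Where a library had 0 reads, the fold was computed against 3 reads in that library and is given as at least that size. This takes the reads of the other library as exact, and the counting interval reaches lower, to 13.4 in place of 17.0 for GA20OX1 and to 1.36 in place of 2.2 for PR-1-LIKE. Folds stand in parentheses after the reads of Col-0 and arf7, in that order, with their interval. The mock libraries were alike across loci, with a Spearman correlation of 0.981 over the loci compared, while the Col-0 NAA library correlated at 0.847 to 0.881 with the other 3 and so stood apart from them.

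The tissue labels were set against marker genes. Summed over 17 root and root hair markers, the Col-0 mock library had 175 CPM and the arf7 mock library 182, and no compared member of that list was called. Seed and embryo markers summed to 3.78 and 6.0 CPM. Photosynthesis and cotyledon markers summed to 13727 CPM in Col-0 mock and 8277 in arf7 mock, against 14334 and 8651 with NAA. PORA, an enzyme of chlorophyll synthesis whose transcript is abundant in dark-grown seedlings and drops in light, had 0 reads in both mock libraries and in arf7 NAA and 373 in Col-0 NAA. The cause of these zeros was not tested. The part that shoot or cotyledon tissue plays in the differences below was not tested, and in bulk tissue fewer cells of a type and less RNA per cell cannot be told apart.

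The disrupted gene itself could hardly be read. ARF7 (AT5G20730, chromosome 5, 7016445 to 7022042 on the reverse strand in the files) had 8 reads in Col-0 mock, 3 in arf7 mock, 8 in Col-0 NAA and 1 in arf7 NAA, which covered an average of 1.57% of its model's length. The mock ratio was 0.40, with a counting interval of 0.07 to 1.65, and the locus was below the abundance filter. These counts do not check the genotype labels. ARF19, the close paralog, had 660 and 643 reads in the mock pair and 702 and 709 in the NAA pair, and its mock ratio was 1.03 (0.92 to 1.15). None of the genes beside ARF7 was called in mock. On one side BGAL7, a beta-galactosidase, had 357 and 322 reads and CPN20, a chaperonin subunit, 118 and 155, a ratio of 1.39 (1.09 to 1.78). On the other side AT5G20740, described as an invertase or pectin methylesterase inhibitor, had 23 and 32 reads, a ratio of 1.47 (0.84 to 2.64), and 109 and 16 with NAA, where it was lower in arf7. Within 100 kb of ARF7, 33 loci were compared, of which 1 was higher and 1 lower.

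Of the 17317 loci, 480 were higher in arf7 mock (2.77%) and 353 lower (2.04%), together 4.81%. The median log2 difference over all loci was 0.07, and the 5th and 95th percentiles were -0.79 and 0.92. The called loci had a median fold of 2.65 among the higher and 2.69 among the lower, and differences of at least 4-fold were found at 67 higher and 81 lower loci. Most calls were at low abundance, since loci that averaged 10 CPM or more gave 145 higher and 130 lower of 10364. In the authors' deposited table for this pair 198 loci are given as higher and 146 as lower. Of these, 194 and 146 also passed the size rule used here.

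**Figure D1:**
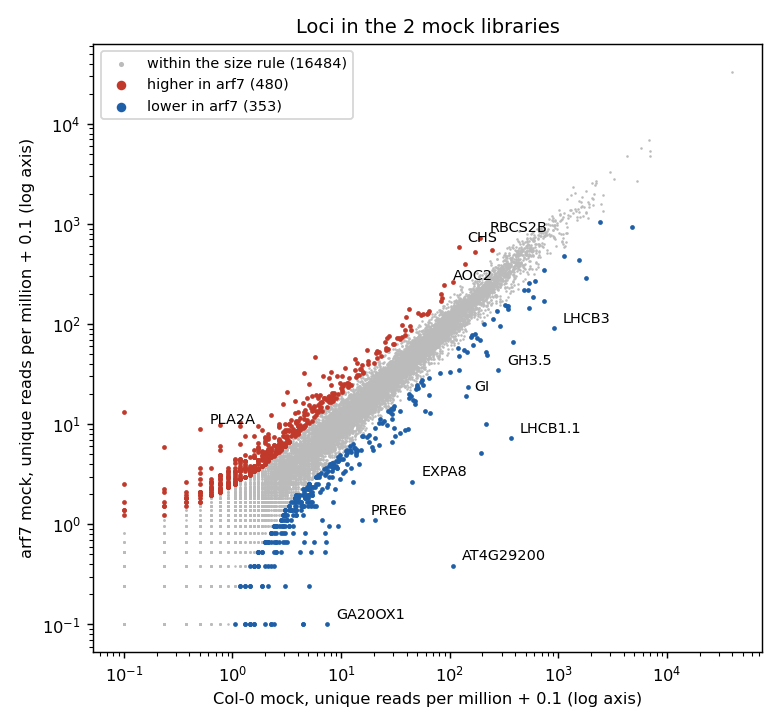
Unique reads as CPM (plus 0.1) of each of 17317 loci in the Col-0 mock library (x, log axis) and the arf7 mock library (y, log axis). Red points are the 480 loci higher in arf7, blue points the 353 lower ones and grey points all others, and the lower loci reach further from the diagonal, down to AT4G29200 with 790 and 2 reads.

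Every called gene of the early auxin-response lists, Aux/IAA, GH3 and SAUR, was lower in arf7 mock. Counts in these and all later gene lists stand against 2.04% lower and 2.77% higher over all loci. Of 29 listed Aux/IAA genes 21 were abundant enough to compare, of which 3 were lower and 0 higher, with a median log2 difference of -0.31 against 0.07 over all loci. Of 7 GH3 genes, 3 were lower and 0 higher, with a median of -0.13. Of 78 listed SAUR genes 48 could be compared, and these gave 13 lower and 0 higher and a median of -0.83, and 34 of the 48 were below 0. The SAUR median was -0.19 when the list was held to a mean of at least 5 CPM.

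Among the Aux/IAA repressors, IAA1 had 231 reads in Col-0 mock and 53 in arf7 mock (4.12-fold lower, 3.04 to 5.66), and 276 and 104 with NAA. Both arf7 libraries were thus below both Col-0 libraries, an order found at 9.56% of all loci compared. That share is not restricted to loci lower in mock, as the genes named here are. IAA5 had 28 and 9 reads (2.94-fold lower, 1.35 to 7.08) and 30 and 8 with NAA, the same order. IAA3, also known as SHY2, had 1175 and 545 reads (2.04-fold lower, 1.84 to 2.26) and 1235 and 875 with NAA. The remaining 18 compared Aux/IAA genes were not called. IAA6 among them, at 12 and 5 reads, differed by over 2-fold but its interval included 1, and IAA20 had 0 and 1 reads. IAA19, a gene with a known role in hypocotyl growth, had 348 and 193 reads, a log2 difference of -0.77.

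Among the GH3 enzymes, GH3.5 (AT4G27260) had 2062 reads in Col-0 mock and 241 in arf7 mock (8.08-fold lower, 7.07 to 9.27), and 5400 and 687 with NAA. GH3.1 had 53 and 4 reads (12.5-fold lower, 4.61 to 47.6) and 374 and 18 with NAA. GH3.6, also known as DFL1, had 1861 and 782 reads (2.25-fold lower, 2.07 to 2.45) and 1815 and 1270 with NAA. At these 3 genes, too, both arf7 libraries were below both Col-0 libraries, as at 9.56% of all loci. Unlike these genes, that share is not restricted to loci lower in mock.

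SAUR genes were read at low counts, and SAUR19 to SAUR24 and SAUR61 to SAUR68 are near-identical copies between which unique reads may be split. SAUR15, the SAUR-AC1 gene, had 17 and 0 reads in the mock pair (at least 5.35-fold lower) and 30 and 1 with NAA. SAUR1 had 34 and 5 reads (6.42-fold lower, 2.50 to 21.0) and 102 and 11 with NAA. Summed over the 6 loci from SAUR19 to SAUR24, the mock libraries had 63 and 8 reads, 7.44-fold lower in arf7 (3.55 to 18.0), and the NAA libraries 503 and 18. The 7 loci from SAUR61 to SAUR68 summed to 86 and 13 reads, 6.25-fold lower (3.47 to 12.2), and to 375 and 23 with NAA. Both clusters were thus lower in arf7 with their copies pooled. SAUR44 had 18 and 4 reads and SAUR49 15 and 4, and the call of SAUR49 was lost when only its most-read model was used.

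The promoters of the lower auxin genes were searched for TGTCTC and TGTCGG, the words of the auxin response element that ARFs bind, on both strands in the 300 bases before the RefSeq gene start. Words on opposite strands can share 1 end base. At least 1 word was found in 2974 of 16996 promoters of compared loci (17.5%), in 63 of 349 promoters of lower loci (18.1%) and in 81 of 452 promoters of higher loci (17.9%). Of the 22 lower members of the Aux/IAA, GH3, SAUR and expansin lists, 8 held a word (36.4%). SAUR62, SAUR66 and SAUR68 are among these 8 and belong to 1 cluster of near-identical copies, so the 22 are not independent. The shares of the lower and of the higher loci were thus both near that of all promoters. Promoters of 4 lower genes are printed 5′ to 3′ on the gene's strand from RefSeq's TAIR10.1 assembly because they show the number and spacing of these words, which stand in capitals (GAGACA and CCGACA are the words read on the other strand).
IAA1, chr4:8360696-8360995, plus strand: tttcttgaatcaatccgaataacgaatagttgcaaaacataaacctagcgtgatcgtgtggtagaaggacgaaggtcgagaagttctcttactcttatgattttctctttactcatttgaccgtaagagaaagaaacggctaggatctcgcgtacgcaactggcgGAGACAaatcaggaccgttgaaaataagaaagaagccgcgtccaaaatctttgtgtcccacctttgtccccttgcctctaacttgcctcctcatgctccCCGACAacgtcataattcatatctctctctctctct
IAA5, chr1:5366498-5366797, minus strand: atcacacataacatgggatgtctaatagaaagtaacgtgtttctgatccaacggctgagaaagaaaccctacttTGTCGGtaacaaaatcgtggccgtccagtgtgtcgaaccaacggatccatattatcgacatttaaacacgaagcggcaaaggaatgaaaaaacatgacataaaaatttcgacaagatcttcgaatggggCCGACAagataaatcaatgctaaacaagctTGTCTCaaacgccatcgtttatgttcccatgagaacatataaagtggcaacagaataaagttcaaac
GH3.5, chr4:13653279-13653578, plus strand: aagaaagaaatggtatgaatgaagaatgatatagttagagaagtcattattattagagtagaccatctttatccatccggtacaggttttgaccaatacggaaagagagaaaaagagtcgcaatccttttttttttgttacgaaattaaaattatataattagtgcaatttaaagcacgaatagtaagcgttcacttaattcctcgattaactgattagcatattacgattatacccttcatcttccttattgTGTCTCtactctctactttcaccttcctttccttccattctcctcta
SAUR15, chr4:18125757-18126056, plus strand: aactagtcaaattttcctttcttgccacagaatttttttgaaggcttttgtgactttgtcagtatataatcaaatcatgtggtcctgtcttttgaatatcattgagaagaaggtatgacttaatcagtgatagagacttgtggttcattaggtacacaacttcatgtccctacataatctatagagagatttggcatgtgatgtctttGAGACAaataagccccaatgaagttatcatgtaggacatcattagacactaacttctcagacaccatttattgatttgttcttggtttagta
The words began 135 and 36 bases before the gene start in IAA1, 226, 97 and 67 bases before it in IAA5, 47 in GH3.5 and 92 in SAUR15. The windows of GH3.1 and GH3.6 held neither word, nor did those of EXPA3, EXPA8 and EXPA11. A match is a run of letters and not a measured binding site.

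Other auxin-related lists were counted in the same way. None of 12 other ARF genes and none of 20 auxin transport genes was called, with medians of 0.28 and 0.02. Log2 differences in the transport list ranged from -0.68 for PIN7 to 0.72 for PIN2, both efflux carriers. Of 7 receptor genes, AFB1 was lower, with 209 reads in Col-0 mock and 92 in arf7 mock (2.15-fold lower, 1.67 to 2.77) and 727 and 281 with NAA. Auxin synthesis gave 1 gene in each direction among 11 compared. YUC9, a flavin monooxygenase of auxin synthesis, had 20 and 5 reads (3.78-fold lower, 1.38 to 12.9), while YUC2 of the same family had 26 and 62 (2.52-fold higher, 1.57 to 4.16). The 4 compared LBD and root initiation genes were all below 0, with a median of -0.95, and 1 of them was lower by the rule. This was PUCHI, an AP2-type transcription factor of lateral root founder cells. PUCHI had 56 and 6 reads (8.82-fold lower, 3.81 to 25.0) and 73 and 15 with NAA.

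Genes of cell wall loosening differed in both directions. Of 21 expansins, 3 were lower and 2 higher, against 2.04% and 2.77% of all loci, with a median of 0.08. EXPA8 had 335 reads in Col-0 mock and 18 in arf7 mock (18-fold lower, 11 to 30), and 2134 and 117 with NAA. EXPA11 had 69 and 6 reads (10.9-fold lower, 4.74 to 30.6) and 1759 and 52 with NAA. EXPA3 had 366 and 170 reads (2.03-fold lower, 1.69 to 2.45). On the other side, EXPA9 had 73 and 162 reads (2.35-fold higher, 1.77 to 3.14) but 1867 and 222 with NAA, where arf7 was the lower. EXPA16 had 15 and 38 reads (2.68-fold higher, 1.44 to 5.25). Among 24 XTH genes, whose enzymes cut and rejoin xyloglucan, XTH17 was lower with 111 and 38 reads (2.76-fold lower, 1.89 to 4.10) and XTH16 higher with 54 and 104 (2.04-fold higher, 1.45 to 2.89). The XTH16 call was lost with TMM factors and with 5 reads added to each count.

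**Figure D2:**
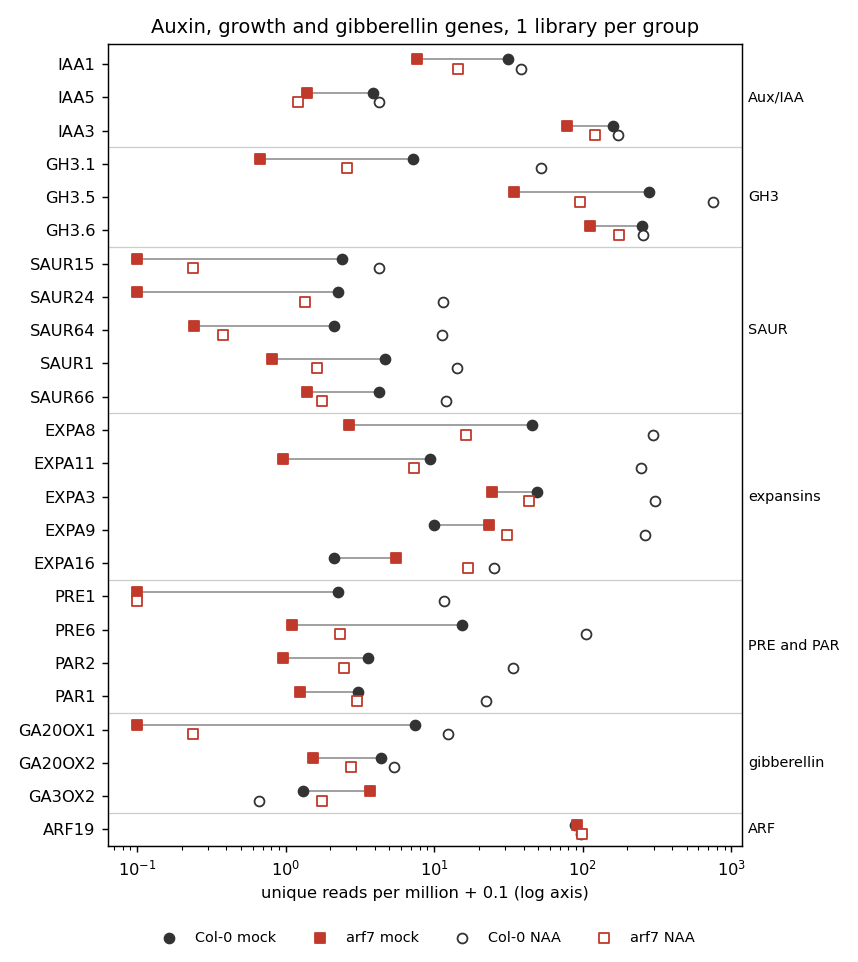
Unique reads as CPM (plus 0.1, log axis) of auxin, growth and gibberellin genes in the 4 libraries, 1 library per group, so there are no error bars. Filled circles are Col-0 mock, filled squares arf7 mock, open circles Col-0 NAA and open squares arf7 NAA, and grey lines join the mock pair. The arf7 mock square lies left of the Col-0 mock circle for the genes named as lower, and right of it for EXPA9, EXPA16 and GA3OX2.

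The list of growth regulators that act with auxin in shade and darkness gave 5 lower and 0 higher genes of 17, with a median of -0.51. PRE1 and PRE6 encode small helix-loop-helix proteins that promote elongation. PRE1 had 16 and 0 reads in the mock pair (at least 5.04-fold lower) and 83 and 0 with NAA, so it was undetected in both arf7 libraries. PRE6, also called KIDARI, had 114 and 7 reads (15.4-fold lower, 7.23 to 39.1) and 749 and 16 with NAA. PAR1 and PAR2, inhibitors of elongation, were lower as well, at 22 and 8 and at 26 and 6 reads, 2.60-fold and 4.09-fold. The PAR1 call was lost with 5 reads added to each count. HAT3, a homeodomain-leucine zipper factor, had 175 and 71 reads (2.33-fold lower, 1.76 to 3.11). These 5 genes thus include promoters and inhibitors of elongation.

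Gibberellin genes gave 3 lower and 2 higher of 19. GA20OX1 (AT4G25420), a GA 20-oxidase that makes precursors of active gibberellin, had 54 and 0 reads (at least 17.0-fold lower) and 88 and 1 with NAA. GA20OX2, of the same step, had 32 and 10 reads (3.02-fold lower, 1.45 to 6.89). GA3OX2, which makes the active hormone, was higher, with 9 and 25 reads (2.94-fold higher, 1.33 to 7.16). Gibberellin-regulated peptide genes also differed in both directions: GASA6 had 100 and 35 reads (2.70-fold lower, 1.82 to 4.09) and GASA1 32 and 113 (3.74-fold higher, 2.51 to 5.72).

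Ethylene synthesis gave 1 gene in each direction of 9. ACS11 had 166 and 43 reads (3.65-fold lower, 2.59 to 5.23) and ACS7 9 and 53 (6.23-fold higher, 3.05 to 14.4), both being synthases of the ethylene precursor. In ethylene signalling, ARGOS-LIKE and ARGOS, which promote organ growth and dampen ethylene response, were lower. ARGOS-LIKE had 479 and 201 reads (2.25-fold lower, 1.91 to 2.67) and 779 and 212 with NAA. ARGOS had 167 and 78 reads (2.02-fold lower, 1.54 to 2.68) and 497 and 28 with NAA, and its mock call was lost with 5 reads added to each count. No brassinosteroid gene of 12 and no abscisic acid or cold gene of 10 was called. CKX6, which degrades cytokinin, was the only called gene of 13 in the cytokinin list, with 153 and 357 reads (2.47-fold higher, 2.04 to 3.0).

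Phototropism is the response for which ARF7 is best known. A joint list of phototropism, photoreceptor and light-signalling genes had 17 members compared, of which 2 were lower and 2 higher. PKS4, a phytochrome kinase substrate that acts in hypocotyl phototropism, had 38 reads in Col-0 mock and 3 in arf7 mock (12.0-fold lower, 3.80 to 60.6), and 207 and 1 with NAA. PKS2 of the same family had 61 and 28 reads (2.06-fold lower, 1.3 to 3.34) and 275 and 63 with NAA. By contrast, PKS1 had 27 and 55 (2.16-fold higher, 1.34 to 3.56) but 610 and 97 with NAA, where arf7 was the lower. The mock calls of PKS2 and PKS1 were lost with 5 reads added to each count. HYH, a bZIP factor of light signalling, had 2 and 12 reads (6.35-fold higher, 1.41 to 58.4), a call that was lost when only its most-read model was used. Neither PHOT1 nor NPH3, the blue-light receptor and its partner, was called. NPH3 was near parity at 15 and 14 reads, with an interval of the ratio from 0.44 to 2.2, while 4 and 4 reads at PHOT1 left an interval of 0.20 to 5.68.

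Large differences at abundant genes were found in the light-harvesting proteins, the chlorophyll a/b binding proteins that surround the photosystems. Of 6 loci whose description has the words light-harvesting or chlorophyll A/B, 5 were lower and 0 higher, and of 66 loci with photosystem in their description 11 were lower and 2 higher. With the spelling chlorophyll A-B added, a count made after the values were seen, the first group had 12 loci, of which 5 were lower and 2, ELIP1 and ELIP2, higher. LHCB1.1 had 2688 reads in Col-0 mock and 50 in arf7 mock (50.8-fold lower, 38.4 to 68.6), and 326 and 20 with NAA. Since LHCB1 genes are near-identical, their 5 loci were also summed, which gave 85503 and 27121 reads, 2.98-fold lower in arf7 mock (2.94 to 3.02), and 69596 and 32263 with NAA. The 3 LHCB2 loci summed to 3523 and 194 reads, 17.2-fold lower (14.8 to 19.9), and to 2044 and 173 with NAA. Pooling thus shrank the difference at LHCB1 and left a large one at LHCB2.

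Other antenna genes were lower too. LHCB3 had 6699 and 636 reads (9.95-fold lower, 9.17 to 10.8) and 3297 and 629 with NAA. LHCB6 had 4315 and 1300 reads (3.14-fold lower, 2.95 to 3.34) and 3001 and 1463 with NAA. LHCA4, the photosystem I antenna protein, had 13306 and 2022 reads (6.22-fold lower, 5.93 to 6.52) but 3882 and 4001 with NAA, where the genotypes were close. Not all antenna genes differed to this extent: the 3 LHCB4 loci summed to 7024 and 5194 reads, 1.28-fold lower (1.23 to 1.32), and LHCA2 had 8047 and 4739. GUN5, a subunit of the enzyme that starts the chlorophyll branch, had 96 and 40 reads (2.27-fold lower, 1.55 to 3.37).

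The small subunit of Rubisco, the carbon-fixing enzyme, went the other way. RBCS2B had 1409 and 5107 reads (3.84-fold higher, 3.62 to 4.07) and 5932 and 3866 with NAA, and RBCS1B had 1012 and 2778 (2.91-fold higher, 2.70 to 3.13) and 301 and 1670. The 4 RBCS loci, which are close copies, summed to 6557 and 13167 reads, 2.13-fold higher in arf7 mock (2.06 to 2.19), and to 10156 and 10833 with NAA. CA1, a carbonic anhydrase, had 460 and 888 reads (2.04-fold higher, 1.82 to 2.29) and 101 and 1195 with NAA, and its mock call was lost with TMM factors. Nuclear photosynthesis genes therefore did not differ in 1 direction: of the 22 compared markers of this tissue 7 were lower and 4 higher. The stress proteins ELIP1 and ELIP2 were among the higher, with 8 and 25 and with 4 and 15 reads, 3.31-fold (1.45 to 8.48) and 3.97-fold (1.26 to 16.4). With NAA arf7 was the lower at both, with 1039 and 14 reads at ELIP1 and 908 and 10 at ELIP2.

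Clock and light-regulated transcription factors stood beside these genes. Of 16 clock genes, 2 were lower and 1 higher. GI, or GIGANTEA, an evening clock protein, had 1036 reads in Col-0 mock and 133 in arf7 mock (7.36-fold lower, 6.14 to 8.88), and 1030 and 371 with NAA. PRR7, a pseudo-response regulator, had 1591 and 364 reads (4.13-fold lower, 3.68 to 4.64) but 656 and 771 with NAA. RVE2, a MYB-like factor, had 75 and 210 reads (2.96-fold higher, 2.27 to 3.91) but 1554 and 359 with NAA, where arf7 was the lower. The other 13 clock genes were not called, among them TOC1 at 2483 and 2046 reads and ELF3 at 1084 and 982. The labels do not give the hour at which samples were taken, and the part of the clock genes in the other differences was not tested.

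Zinc finger loci by description gave 14 lower and 7 higher of 298, or 4.70% and 2.35% against 2.04% and 2.77% over all loci. Of the 14 loci with B-box in their description, zinc finger factors of light signalling singled out after their values were seen, 5 were lower and 1 higher. BBX28 had 150 and 7 reads (20.2-fold lower, 9.59 to 51.2) and 949 and 42 with NAA, and BBX29 had 30 and 3 (9.45-fold lower, 2.94 to 48.4) and 56 and 11. STO had 132 and 54 reads, BBX27 69 and 29 and BBX18 22 and 9, all lower by the rule, whereas BZS1 of the same class was higher with 87 and 176. COL5, a CONSTANS-like B-box protein, had 1082 and 163 reads (6.27-fold lower, 5.31 to 7.44) and 5306 and 457 with NAA.

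**Figure D3:**
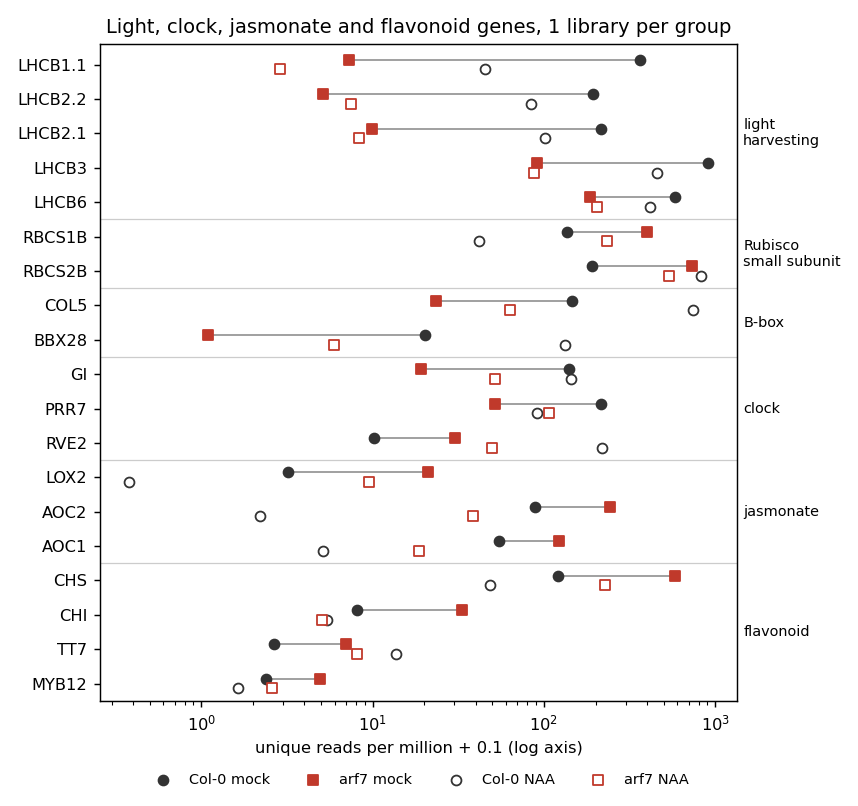
Unique reads as CPM (plus 0.1, log axis) of light-harvesting, Rubisco, B-box, clock, jasmonate and flavonoid genes in the 4 libraries, with the same symbols as in the plot of auxin genes and no error bars, since there is 1 library per group. In the mock pair the light-harvesting and B-box genes, GI and PRR7 lie lower in arf7, and the Rubisco, jasmonate and flavonoid genes lie higher.

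Several flavonoid genes were higher in arf7 mock. Of 11 flavonoid and phenylpropanoid genes compared, 4 were higher and 0 lower and the median was 0.53. CHS, chalcone synthase, the entry enzyme of the pathway, had 894 reads in Col-0 mock and 4087 in arf7 mock (4.84-fold higher, 4.50 to 5.21), and 349 and 1638 with NAA. CHI, the isomerase of the next step, had 59 and 231 reads (4.14-fold higher, 3.1 to 5.61) but 38 and 36 with NAA. TT7, the flavonoid 3'-hydroxylase, had 19 and 48 reads (2.67-fold higher, 1.54 to 4.82) and MYB12, a MYB activator of flavonol genes, 17 and 34 (2.12-fold higher, 1.15 to 4.04), a call lost with 5 reads added to each count. The enzymes of the shared phenylpropanoid entry were near parity, with 5105 and 5777 reads at PAL1 and 5332 and 5686 at C4H.

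Jasmonate genes lay mostly above parity: 3 of 20 were higher and 0 lower, the median was 0.70, and 19 of 20 were above 0. LOX2, a plastid lipoxygenase at the start of jasmonate synthesis, had 23 and 146 reads (6.72-fold higher, 4.31 to 10.9) and 2 and 68 with NAA. AOC1 and AOC2 encode allene oxide cyclases and share much of their sequence. AOC2 had 658 and 1698 reads (2.73-fold higher, 2.50 to 2.99) and 15 and 275 with NAA, and AOC1 had 406 and 853 (2.22-fold higher, 1.97 to 2.51) and 36 and 133. Summed over the 4 AOC loci, the mock libraries had 3559 and 6041 reads, 1.80-fold higher in arf7 (1.72 to 1.87). The NAA libraries had 1326 and 2005, 1.51-fold higher (1.40 to 1.62), so neither sum reached the 2-fold limit. The JAZ repressors, which jasmonate induces, lay below the 2-fold limit, with JAZ5 at 433 and 702 reads (log2 difference 0.78) and JAZ2 at 1325 and 2239 (0.84).

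Defence and stress lists were quieter. WRKY53, a defence-related transcription factor, was the 1 called gene of 13 in the defence list, with 750 reads in Col-0 mock and 230 in arf7 mock (3.08-fold lower, 2.65 to 3.59), and 135 and 442 with NAA, where arf7 was the higher. Among 98 loci with calmodulin, EF-hand or calcium-binding in their description 5 were lower and 1 higher. These are 5.10% and 1.02%, against 2.04% and 2.77% over all loci. TCH3, a calmodulin-like gene induced by touch, had 33 and 4 reads (7.79-fold lower, 2.77 to 30.3) but 7 and 24 with NAA. No heat shock gene of 10 was called. PCO1, an oxygen-sensing cysteine oxidase, was the 1 called gene of 8 in the low-oxygen list, with 18 and 39 reads (2.29-fold higher, 1.28 to 4.26). With NAA PCO1 had 276 and 53 reads, where arf7 was the lower. FMOGS-OX1, of glucosinolate side chain oxidation, was the 1 called gene of 19 in its list, with 14 and 45 reads (3.4-fold higher, 1.83 to 6.71). Cell division genes gave 1 call in 24, CYCA3;1 with 11 and 23 reads, which was lost with TMM factors and with 5 reads added. Among tissue markers, XCP1 of xylem vessels (90 and 36 reads) and the floral gene PI (66 and 29 reads) were lower, and the seed storage gene SESA1 (7 and 25 reads) higher. The call of PI was lost with 5 reads added.

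**Figure D4:**
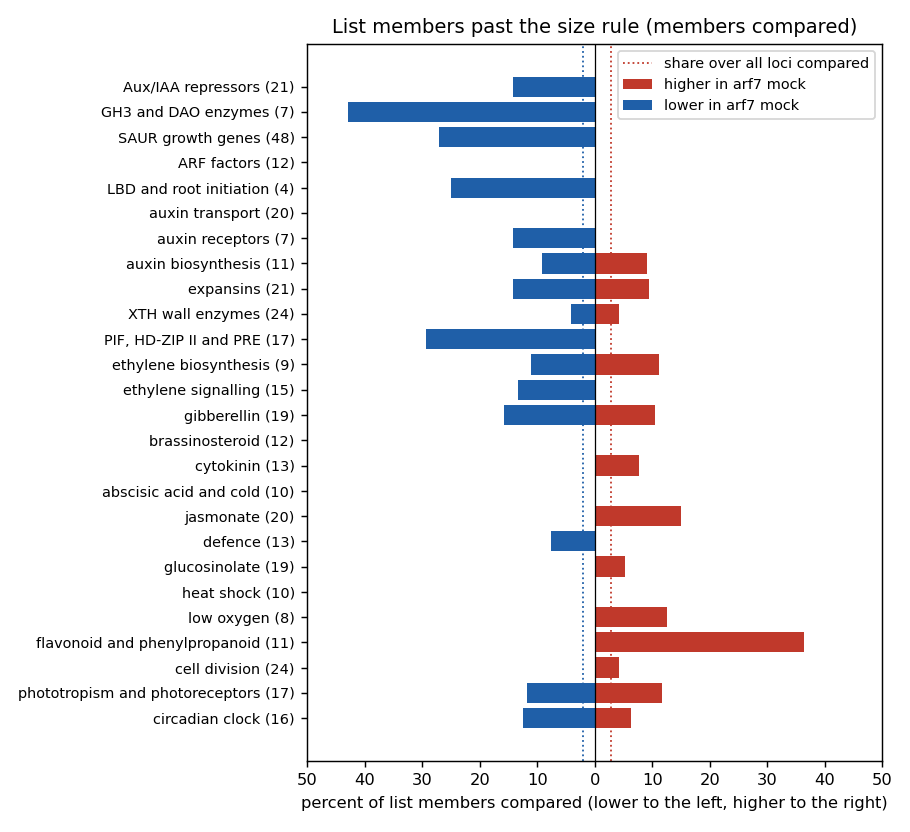
Percent of the compared members of each gene list that were lower (blue, to the left) or higher (red, to the right) in arf7 mock, with the number compared in parentheses. Dotted lines mark the shares over all 17317 loci, 2.04% lower and 2.77% higher, and the GH3, PIF and SAUR lists extend furthest to the left and the flavonoid list furthest to the right.

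Several enzyme families gave higher loci at a share above the 2.77% of all loci. By the files' descriptions, 13 of 136 cytochrome P450 loci were higher and 2 lower, 9 of 91 UDP-glycosyltransferase loci were higher and 1 lower, and 8 of 68 peroxidase loci were higher and 2 lower. Methyltransferases did not share this, with 3 higher and 1 lower of 181. With NAA the first 3 families gave 31 higher and 35 lower, 13 and 20, and 7 and 28, so the lower loci were the more numerous there. DOGT1, which the files describe in other words, is a glycosyltransferase that acts on brassinosteroids and a fungal toxin, and had 33 and 227 reads (7.28-fold higher, 5.04 to 10.8), and UGT85A1, which glycosylates cytokinins, had 37 and 177 (5.06-fold higher, 3.54 to 7.43). Transporters gave 18 higher and 3 lower of 275 in the mock pair, and 28 higher and 54 lower with NAA. The phosphate transporter PHT1;1 had 14 and 50 reads (3.78-fold higher, 2.06 to 7.41), the sulphate transporter SULTR3;1 8 and 29 (3.84-fold higher, 1.71 to 9.71) in this group, and outside it the calcium exchanger CAX3 had 39 and 134 (3.64-fold higher, 2.53 to 5.34). Each of these was lower in arf7 with NAA, with the reads given further below. Among the lower, the nitrate transporter NRT1.5 had 1640 and 346 reads (4.48-fold lower, 3.98 to 5.04) and 3959 and 521 with NAA. Loci with extensin or proline-rich in their description, counted together, gave 10 higher and 0 lower of 137, and 22 and 41 with NAA. Ribosomal protein loci, a large family near parity, gave 3 higher and 1 lower of 311.

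Some loci were nearly silent in both arf7 libraries and readily detected in both Col-0 libraries. With at most 3 reads in each arf7 library and at least 30 in each Col-0 library, 5 loci qualified, and 0 loci showed the converse. AT4G29200 (chromosome 4, 14398054 to 14400198), described as related to beta-galactosidase, had 790 reads in Col-0 mock, 2 in arf7 mock, 954 in Col-0 NAA and 2 in arf7 NAA. Its mock ratio was 373-fold lower with a wide interval of 103 to 3087. GolS3, a galactinol synthase, had 32 and 0 reads (at least 10-fold lower) and 149 and 0 with NAA. QQS, a gene of starch metabolism, had 37 and 1 reads (35.0-fold lower, 5.90 to 1417) and 62 and 2 with NAA. GA20OX1 and PKS4, given above, complete the set.

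The NAA pair, which shares no library with the mock pair, shows the same genotypes under another treatment and is not a replicate. In that pair 2263 loci were higher in arf7 (13.1%) and 2178 lower (12.6%). Of the 353 loci lower in mock, 140 were lower with NAA (39.7%), 54 were higher and 159 were not called. Of the 480 loci higher in mock, 84 were higher with NAA (17.5%), 149 were lower (31.0%) and 247 were not called. Among the 16484 loci without a mock call, 2125 were higher and 1889 lower with NAA. Calls in the same direction were thus found at 39.7% of the lower loci against 12.6% of all loci, and at 17.5% of the higher loci against 13.1%. Opposite calls were found at 31.0% of the higher loci against 12.6%, and at 15.3% of the lower loci against 13.1%. The filter on abundance includes the NAA libraries. A filter of 1 CPM or more in the mock pair alone was also used, a setting chosen after the data were seen. It kept 16563 loci, of which 10.2% were lower and 13.6% higher with NAA. Of its 330 loci lower in mock, 121 were lower and 54 higher with NAA. Of its 464 loci higher in mock, 83 were higher and 138 lower with NAA.

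The 15 lowest annotated loci averaging 10 CPM or more include 7 that reach this level only through Col-0 NAA, the other 3 libraries averaging less. Such loci had to be high in that library, so their lower NAA value in arf7 is no second observation. UMAMIT25, of an amino acid transporter family, had 10 and 0 reads in the mock pair (at least 3.15-fold lower) and 331 and 19 with NAA. PR-1-LIKE, named for its similarity to a pathogenesis-related protein, had 7 and 0 reads (at least 2.2-fold lower) and 511 and 70 with NAA. WNK3, a kinase, had 16 and 2 reads (7.56-fold lower, 1.78 to 67.8) and 400 and 9 with NAA. These 3 loci had few reads in mock and are of this kind. The rest of the 7 are GH3.1, EXPA11, PRE6 and BBX28, whose reads in both pairs are given above.

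The 140 loci lower in both pairs included, among the most abundant, LHCB3, GH3.5, COL5, NRT1.5 and LHCB6. TIP2;3, a tonoplast water channel, had 77 and 22 reads in the mock pair (3.31-fold lower, 2.04 to 5.58) and 8564 and 140 with NAA. TIP2;3 was this abundant only through Col-0 NAA, at 1194 CPM against 10.4 in Col-0 mock, 3.14 in arf7 mock and 19.4 in arf7 NAA. Its lower NAA value in arf7 is thus no second observation. EXL4, an EXORDIUM-like protein, had 5413 and 2402 reads (2.13-fold lower, 2.03 to 2.23) and 11484 and 2920 with NAA. The 84 loci higher in both included CHS, AOC1, AOC2, RBCS1B and CA1. AOC1, AOC2 and RBCS1B have close copies, and the sums over copies differed less. The summed AOC loci were 1.80-fold higher in mock and 1.51-fold with NAA, and the summed RBCS loci 2.13-fold and 1.06-fold. NRT1.7, a nitrate transporter, had 225 and 441 reads (2.07-fold higher, 1.76 to 2.45) and 72 and 258 with NAA, and MYB95 had 255 and 501 (2.08-fold higher, 1.79 to 2.43) and 40 and 209; the mock calls of both were lost with TMM factors.

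**Figure D5:**
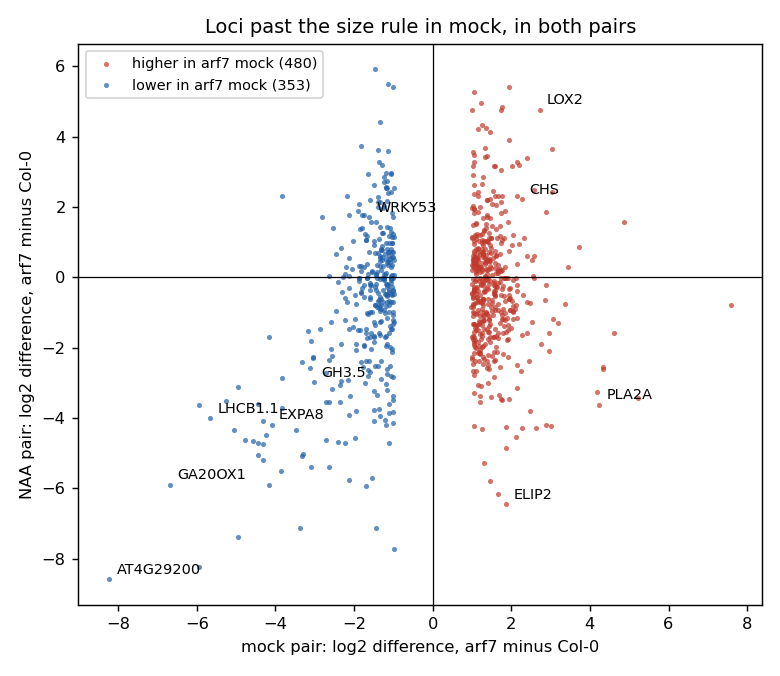
Log2 difference between arf7 and Col-0 in the mock pair (x) and in the NAA pair (y) for the 833 loci called in mock, with 480 higher loci in red and 353 lower loci in blue. The gap around 0 on the x axis is made by the 2-fold rule. The blue points with the lowest x values, such as AT4G29200, GA20OX1 and LHCB1.1, are also below 0 on y, while red points lie on both sides of 0.

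A fit over all 4 libraries with genotype and treatment as terms, which leaves 1 residual degree of freedom, called no locus for genotype with edgeR's quasi-likelihood test at a Benjamini-Hochberg adjusted p under 0.05 (0.0%), with 544 loci at an unadjusted p under 0.05. limma called 0 as well, with 703 unadjusted, and DESeq2 called 62, of which 6 were higher and 56 lower, with 568 unadjusted. The edgeR adjusted p was 0.316 for AT4G29200 and 0.680 for EXPA8 and BBX28. This fit averages over treatments and counts a genotype difference that changes with NAA as error.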

How the data were processed

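RNA of hypocotyls was sequenced in 4 libraries, 1 per genotype and treatment, and the comparison uses the mock pair. The authors deposited, per the file headers, a count of uniquely assigned reads for each transcript model with a read, its length, the percent of the model covered and an RPKM value. Per the submitters' processing notes reads were placed on TAIR10, while an aligner or read counter is not given in the sources used here. For this pair the authors' deposited table also holds a log2 ratio, a p-value and an FDR per listed model, the smallest absolute log2 being 1.01 and the highest FDR 0.000945. A further 16 columns of per-sample values were not used.

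Reads were summed per locus and scaled to the library total. Loci that averaged 1 CPM or more (reads per 1000000) over the 4 libraries were compared, and log2 differences carry 0.5 reads added to each count. With 1 library per group there is no test of the mock difference. A call needs a fold of at least 2 and a 95% exact conditional (Clopper-Pearson) interval excluding 1. Across all loci, an additive fit of genotype and treatment was run with edgeR 4.0.16, with DESeq2 1.42.0 and limma 3.58.1 as alternatives, in R 4.3.3, and intervals were computed with scipy 1.17.1. Both procedures were checked on simulated counts.

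The median covered share was 70.4% of the model at loci with 1 listed model and 4.38% at loci with 2 or more, so reads in sequence shared by models seem to be missing. Near-identical paralogs and antisense partners are uncertain. The 26 gene lists, 8 marker lists, 48 description families and the comparison itself were chosen with earlier results of these data known. Of 681 listed symbols 664 were matched, and the ARF list leaves out ARF7. Of 23695 loci with a read, 23505 matched a RefSeq locus tag, which gave the promoters from TAIR10.1.

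Named genes are ARF7, ARF19 and the neighbours of ARF7, up to 4 called members per list at each end, the 15 highest and 15 lowest called loci among those that carry a symbol and average 10 CPM or more, loci with at most 3 reads in both libraries of 1 genotype and at least 30 in both of the other, and up to 10 per direction called alike in both pairs. Members of description families, genes that were not called and loci without a symbol were chosen after their values were seen. Alternatives were TMM and DESeq2 scaling, other abundance, fold and interval limits, transcript models in place of loci, a larger added count and a looser promoter word.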

Additional observations from a re-analysis of the deposited data

Results flagged for a closer look

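The genotype difference turned between the mock and the NAA pair at many loci, and none of these changes was tested, since each pair has 1 library per genotype. There were 54 loci lower in arf7 mock and higher in arf7 with NAA, and 149 loci higher in mock and lower with NAA. The loci named below are among the 15 annotated loci with the highest mock fold that averaged 10 CPM or more over the 4 libraries. For 5 of these 15, the other 3 libraries averaged less than 10 CPM, so that they were named only because Col-0 NAA was high, which fixes their direction with NAA; PLA2A, ELIP2, SULTR3;1, CAX7 and PHT1;1 are these 5.

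PLA2A, a lipid acyl hydrolase, had 3 reads in Col-0 mock and 62 in arf7 mock (21.9-fold higher, 7.15 to 109) but 374 and 30 with NAA, a log2 difference of -3.62. AIR3, a subtilisin-like protease known as auxin-induced in roots, had 21 and 110 reads (5.54-fold higher, 3.45 to 9.31) and 880 and 169 with NAA (-2.38). ELIP2 had 4 and 15 reads (3.97-fold higher, 1.26 to 16.4) and 908 and 10 with NAA (-6.44). In each case the Col-0 NAA library was far above the other 3.

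SULTR3;1 had 271 and 9 reads with NAA, a log2 difference of -4.84, CAX7 299 and 47 (-2.66) and CLH1, a chlorophyllase, 160 and 33 (-2.27). PHT1;1 had 332 and 96 reads with NAA (-1.79), GASA1 577 and 260 (-1.15) and CAX3 212 and 106 (-1.0). TAT3, a tyrosine aminotransferase, differed from these in having most reads in the mock pair, 80 and 256 (3.39-fold higher, 2.63 to 4.41), and 21 and 9 with NAA (-1.18).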

How the results depend on the processing

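No paired analysis was possible because each group has 1 library, and for the same reason no replicate could be left out. The 480 higher and 353 lower loci became 227 and 180 at loci averaging 5 CPM or more, 1101 and 762 with a fold of at least 1.5, and 175 and 151 with a fold of at least 3. Under TMM or DESeq2 scaling, no abundance filter, transcript models, loci with 1 listed model and a 99% interval, the counts lay between 361 and 559 higher and between 261 and 398 lower, within 1.5 times of those reported. TMM scaling gave 404 higher and 398 lower. The 4 counts of loci called alike or oppositely in the mock and NAA pairs stayed within 1.5 times with TMM factors and with the abundance filter set on the mock pair alone. The genotype fit over 4 libraries called 0 loci with edgeR and limma and 62 with DESeq2. With TGTCNN in place of the exact words, 80.2% of the promoters of lower loci and 79.6% of those of higher loci held a match, against 80.7% of all. Of 104 named loci, none changed direction among those called. The call was lost at 5 with TMM factors, 8 with 5 reads added and 2 with the most-read model. Low unique counts, whatever their cause, limit genes such as ARF7, PHOT1 and the SAUR copies, where a handful of reads decides the ratio. The causes of these changes were not tested beyond what the settings themselves remove.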

Other observations

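Of 126 loci described as transposable elements 16 were higher in arf7 mock and 2 lower, or 12.7% and 1.59% against 2.77% and 2.04% of all loci, with a median log2 difference of 0.28 against 0.07. With NAA the same loci gave 16 higher and 18 lower and a median of 0.05. AT5G35935 had 42 reads in Col-0 mock and 331 in arf7 mock (8.34-fold higher, 6.04 to 11.8) and 25 and 319 with NAA, both arf7 libraries being above both Col-0 libraries, as at 18.9% of all loci. That share is not restricted to loci higher in mock, as AT5G35935 is. SADHU5-1, a retroelement, had 5 and 68 reads (14.4-fold higher, 5.88 to 45.8) and 20 and 37 with NAA. Of 65 loci of the chloroplast genome 9 were higher and 0 lower, with a median of 0.42, and of 27 mitochondrial loci 0 were called. Chloroplast-genome loci took 0.274% of reads in Col-0 mock and 0.374% in arf7 mock.

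AT2G04050, described as a MATE efflux protein, was singled out after its values were seen because it had the highest mock fold of the loci compared, with 0 and 91 reads (at least 32.1-fold higher). With NAA it had 21 and 12 reads, so the 91 reads of arf7 mock stand alone among the 4 libraries. Around AT4G29200, which was nearly silent in both arf7 libraries, the adjoining locus GGT4 had 13 and 12 reads in the mock pair and OZF2 76 and 53, and neither was called in mock. UMAMIT25 lies close to GolS3 on chromosome 1, and both were lower in arf7 mock. Each was named for its low reads in arf7, so the shared direction is no separate observation. CRB on the other side of GolS3 had 2325 and 3039 reads and was not called in mock.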
